A study of Mus musculus with 2 samples.

Results

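The genes described here are 9 cardiac transcription factors, Gata4, Nkx2-5, Tbx5, Tbx20, Mef2a, Mef2c, Mef2d, Hand2 and Srf, and the muscle methyltransferase Smyd1. They were picked by symbol, by a rule that uses no measured value although earlier results of these data were known, and all 10 were among the 19465 genes of the spatial RNA tables. The series holds one 5 μm heart section from each of 2 mice, profiled by probe-based Visium, in which RNA is read per spot of a capture array and a spot can cover several cells of different types. The control mouse was α-MHC-MerCreMer+/−, with a tamoxifen-activated Cre driven in cardiomyocytes by the α-MHC promoter. The TOP2B transgenic mouse was α-MHC-MerCreMer+/−TOP2B LSL/− and carried, besides the same Cre, a human TOP2B cDNA at the Rosa26 locus behind a CAG promoter and a stop cassette that Cre removes. Both mice received a single intraperitoneal dose of tamoxifen at 80 mg/kg, so Cre and tamoxifen were shared by both sections. Age and sex were not given in the labels. With 1 mouse per genotype there was no test between genotypes. All intervals in the text are exact 95% intervals that cover counting error only, and neither the spread between mice nor the plane of the section could be told apart from genotype.

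The control section held 1256 spots over tissue and 14376300 UMIs (unique molecular identifiers, each standing for 1 captured probe molecule), and the transgenic section held 924 spots and 12953389 UMIs. A control spot had a median of 11335.5 UMIs and a transgenic spot one of 14531. Levels are given as UMIs per 1000000 UMIs of a section (CPM), and a ratio is the log2 of the transgenic over the control CPM. Over the 15236 genes that reached 20 UMIs in both sections together, the median ratio was 0.20. Past 2-fold, 13.7% of them were higher and 5.61% lower. Cardiomyocyte markers took 4.08% of control and 3.39% of transgenic UMIs, fibroblast markers 0.140% and 0.201%, macrophage markers 0.0319% and 0.0629%, and erythroid genes 0.214% and 2.04%. Of the cardiomyocyte markers (such as Tnnt2, Ttn, Actn2 and Ryr2), 9 had at least 20 UMIs, with 0 higher and 2 lower past 2-fold and a median ratio of −0.42, so levels given per cardiomyocyte-marker UMI rest on a divisor that was itself lower. Fewer cells of a type and less RNA per cell cannot be told apart in such spots, and the part of tissue composition in the ratios was not tested. The mouse Top2b probes gave a ratio of −0.07 (−0.17 to 0.04). Whether they read the human cDNA is not given in the sources used here, so they check neither label.

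GATA4, NKX2-5 and TBX5 bind DNA together at many genes of the heart muscle and are known for their dose-dependent roles in heart formation. TBX20 is a T-box factor needed in both the developing and the adult heart, and HAND2 is a basic helix-loop-helix factor known for the growth of the right ventricle. MEF2 factors bind A/T-rich sites of muscle genes and are held back by class II histone deacetylases, while SRF binds CArG boxes and is switched between muscle and growth genes by its cofactors myocardin and the MRTFs. SMYD1 is a muscle-restricted SET and MYND domain protein that methylates histones and is needed for sarcomere assembly. In the adult mouse ventricle Myh6 is the main myosin heavy chain, and Myh7 is the fetal one that returns in stressed hearts.

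Promoter windows of 300 bases, from 250 bases before to 50 after the start site, were read from RefSeq (GRCm38.p6, not the GRCm39 build named for the counts), which held 8 of the 10 genes but neither Gata4 nor Tbx5. They were searched on both strands for the GATA motif (AGATAA or AGATAG or TGATAA or TGATAG), the NKX motif (TNAAGTG), the T-box motif (AGGTGT), the MEF2 site, the CArG box and the MCAT motif (CATTCC) bound by TEAD factors. Capitals mark their matches, and each sequence is printed on its gene's own strand. Smyd1 and Hand2 are shown because they had the lowest and the highest ratio among the 10 genes, Srf because its window holds a pair of its own motif, and Nppa, the gene of atrial natriuretic peptide, because it is the textbook target that GATA4, NKX2-5 and TBX5 share.
Smyd1 promoter, chr6:71262232-71262531, minus strand: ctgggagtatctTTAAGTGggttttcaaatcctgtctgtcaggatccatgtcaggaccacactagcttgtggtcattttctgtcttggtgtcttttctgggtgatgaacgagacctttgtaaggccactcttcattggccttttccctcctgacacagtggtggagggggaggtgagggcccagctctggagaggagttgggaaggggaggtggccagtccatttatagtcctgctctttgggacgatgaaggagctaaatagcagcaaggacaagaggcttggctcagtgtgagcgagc
Hand2 promoter, chr8:57320733-57321032, plus strand: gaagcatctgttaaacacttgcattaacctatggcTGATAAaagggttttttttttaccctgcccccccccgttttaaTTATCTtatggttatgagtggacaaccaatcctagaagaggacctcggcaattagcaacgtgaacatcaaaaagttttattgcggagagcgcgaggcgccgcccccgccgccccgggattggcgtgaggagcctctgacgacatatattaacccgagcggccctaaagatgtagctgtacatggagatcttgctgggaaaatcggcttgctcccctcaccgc
Srf promoter, chr17:46556113-46556412, minus strand: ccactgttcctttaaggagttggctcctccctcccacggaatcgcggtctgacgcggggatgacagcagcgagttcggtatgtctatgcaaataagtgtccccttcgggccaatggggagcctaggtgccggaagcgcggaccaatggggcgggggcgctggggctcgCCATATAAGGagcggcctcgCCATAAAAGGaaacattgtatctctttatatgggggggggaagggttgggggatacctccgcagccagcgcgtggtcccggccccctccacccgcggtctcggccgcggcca
Nppa promoter, chr4:148000472-148000771, plus strand: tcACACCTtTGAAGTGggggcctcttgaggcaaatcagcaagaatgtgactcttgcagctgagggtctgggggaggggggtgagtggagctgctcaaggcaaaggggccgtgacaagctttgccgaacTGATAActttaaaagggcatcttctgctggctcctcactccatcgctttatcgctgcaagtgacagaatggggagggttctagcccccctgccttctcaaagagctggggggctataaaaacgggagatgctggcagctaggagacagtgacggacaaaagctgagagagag
The Smyd1 window held 1 NKX match, at −238 to −232 from the start site, and no MEF2 or CArG match. The Hand2 window held 2 GATA matches, at −215 to −210 and at −172 to −167. The Srf window held 2 CArG matches, at −82 to −73 and at −62 to −53. In the Nppa window a T-box match at −248 to −243 lay beside an NKX match at −241 to −235, with a GATA match at −122 to −117. The Mef2a window held a MEF2 match at −2 to 8, and no motif of this set was found in the windows of Nkx2-5, Tbx20 and Mef2d. Mef2c had 3 windows, with an MCAT match at −75 to −70 in the first, a T-box match at −216 to −211 in the second and none in the third. Of 32851 RefSeq windows of this length, 29.8% held a GATA, 11.5% an NKX, 13.7% a T-box, 14.7% an MCAT, 3.19% a MEF2 and 1.63% a CArG match. A match describes the letters and is no evidence of binding.

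The counting interval of the ratio lay above 0 for 3 of the 10 genes and below 0 for 3, against 39.4% and 17% of all tested genes. Hand2, Tbx20 and Srf were higher in the transgenic section, Smyd1, Mef2d and Tbx5 were lower, and the intervals of Gata4, Nkx2-5, Mef2a and Mef2c included 0. Past a 2-fold difference, 1 gene was higher (Hand2) and 1 lower (Smyd1), against 13.7% and 5.61% of all tested genes. The median ratio of the 10 genes was 0.07, beside 0.20 over all genes. In the order of ratios, Hand2, Tbx20, Srf and Smyd1 did not overlap with their neighbours, while Mef2c, Gata4, Nkx2-5 and Mef2a could not be separated from each other by counting error, nor could Tbx5 from Mef2d.

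**Figure D1:**
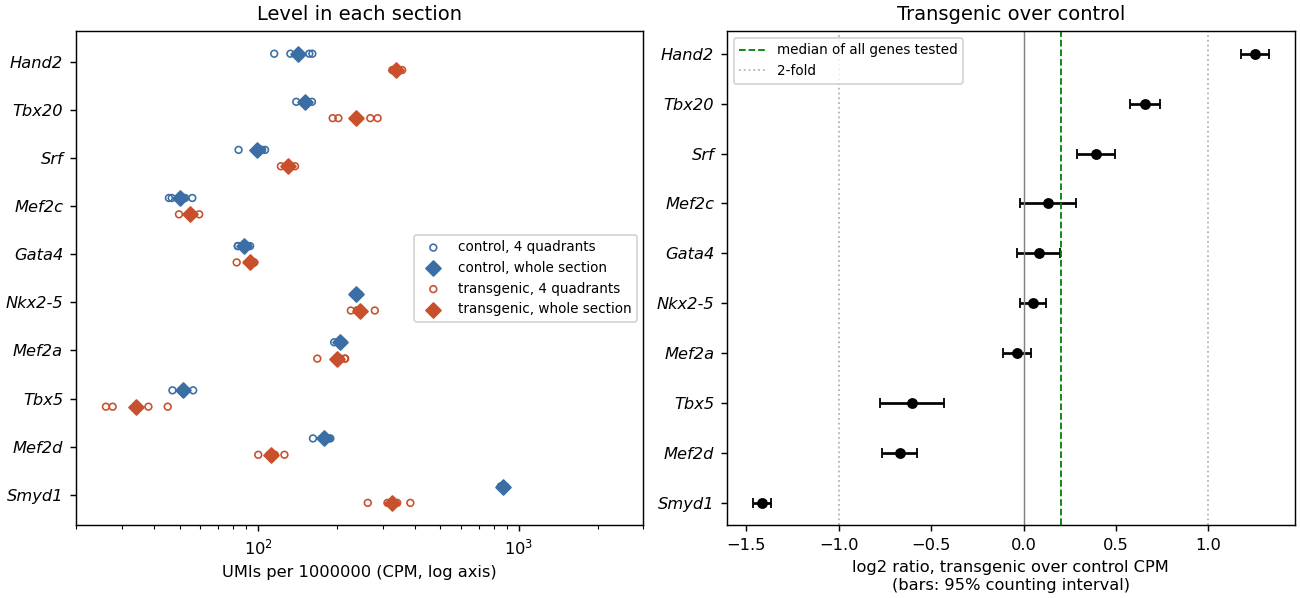
CPM of the 10 genes in the control and the transgenic section on a log axis, with the 4 quadrants of each section (left), and the log2 ratio of transgenic over control with its exact 95% counting interval (right). Smyd1 is lower and Hand2 higher in every transgenic quadrant than in any control quadrant, and the quadrants of Gata4, Nkx2-5, Mef2a and Mef2c overlap.

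Smyd1 was at 868.1 CPM (852.9 to 883.5; 12480 UMIs) in control tissue and 325.7 CPM (316.0 to 335.7; 4219 UMIs) in the transgenic section. It was 2.67-fold lower, a ratio of −1.41 (−1.46 to −1.36), and 2.31% of the tested genes had a lower one. The control quadrants lay between 851.1 and 886.1 CPM and the transgenic ones at 341.2, 263.2, 383.2 and 313.0, so the lowest control quadrant was more than 2-fold above the highest transgenic one. Its level was nearly even across the control quadrants and less so across the transgenic ones.

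Hand2 was at 141.9 CPM (135.8 to 148.2) in control tissue and 337.5 CPM (327.6 to 347.7) in the transgenic section. This 2.38-fold difference, a ratio of 1.25 (1.17 to 1.33), was exceeded by 9.20% of tested genes. The control quadrants were at 132.9, 157.0, 115.2 and 161.3 CPM and the transgenic ones at 334.3, 356.3, 330.7 and 326.8, with no overlap. Its relative Hand1 had no UMI in either section.

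Among the T-box factors, the 2 listed genes differed in opposite directions. Tbx20 was at 150.8 CPM (144.5 to 157.3) in control tissue and 237.6 CPM (229.3 to 246.2) in the transgenic section, a ratio of 0.66 (0.58 to 0.74). Its control quadrants reached from 140.0 to 160.8 CPM and its transgenic quadrants from 193.1 to 287.0. Tbx5, the factor mutated in Holt-Oram syndrome, was at 51.5 CPM (47.9 to 55.4) and 33.9 CPM (30.8 to 37.2), a ratio of −0.60 (−0.78 to −0.43). The transgenic quadrants of Tbx5 were at 27.7, 38.0, 26.1 and 45.0 CPM, and the highest of them was just under the lowest control quadrant at 46.9.

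Gata4 and Nkx2-5, the partners of TBX5 on DNA, were at close levels in both sections. Gata4 was at 87.9 CPM (83.1 to 92.9) in control tissue and 93.0 CPM (87.9 to 98.4) in the transgenic section, a ratio of 0.08 (−0.03 to 0.20). Nkx2-5 was at 237.5 CPM (229.6 to 245.6) and 245.6 CPM (237.2 to 254.3), a ratio of 0.05 (−0.02 to 0.12). The sign of both, and of Mef2c, turned with edgeR's and DESeq2's scaling factors, to −0.08 for Gata4, −0.11 for Nkx2-5 and −0.03 for Mef2c with edgeR's.

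The MEF2 genes were split. Mef2d was lower in the transgenic section, with 178.8 CPM (171.9 to 185.8) in control tissue and 112.4 CPM (106.7 to 118.3) in the transgenic section, a ratio of −0.67 (−0.76 to −0.58). Its quadrants lay between 162.2 and 189.1 CPM in the control and between 100.1 and 126.1 in the transgenic section. Mef2a was at 205.6 CPM (198.3 to 213.2) and 200.8 CPM (193.2 to 208.7), a ratio of −0.03 (−0.11 to 0.04), and Mef2c at 50.0 CPM (46.4 to 53.8) and 54.7 CPM (50.8 to 58.9), a ratio of 0.13 (−0.02 to 0.28). The quadrants of both overlapped between the sections.

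Srf was at 99.0 CPM (94.0 to 104.3) in control tissue and 130.2 CPM (124.0 to 136.5) in the transgenic section, a ratio of 0.39 (0.29 to 0.50). Its control quadrants lay between 84.1 and 106.3 CPM and its transgenic quadrants between 122.2 and 138.4. Counting quadrants over the list, 3 genes (Tbx20, Hand2 and Srf) were higher in every transgenic quadrant than in any control quadrant, against 30.4% of all tested genes. The reverse held for 3 genes (Tbx5, Mef2d and Smyd1), against 13.1%. Quadrants of 1 section come from 1 mouse and are no replicates.

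Most of these genes were seen in most spots. The share of spots with a Smyd1 UMI was 99.3% in the control and 93.2% in the transgenic section, that of Hand2 79.1% and 93.3%, that of Tbx20 76.2% and 89.6%, that of Mef2d 84.6% and 75.3% and that of Tbx5 44.4% and 35.2%. Factors of other lineages, which should be near absent from heart muscle, had a UMI in at most 1.35% of control and 2.38% of transgenic spots. For equal depth, spots were thinned to 8134 UMIs, and the 140 control and 78 transgenic spots below that total were left out. The shares were then 100% and 91.8% for Smyd1, 67.6% and 91.6% for Hand2, 67.3% and 82.6% for Tbx20, 76.9% and 60.0% for Mef2d and 34.1% and 23.1% for Tbx5. The order of the sections was thus the same at equal depth for these 5 genes.

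Of 12 listed family genes, 11 had at least 20 UMIs. Of these, 1 was higher and 0 lower past 2-fold, against 13.7% and 5.61% of all tested genes. The median ratio of the 11 was 0.21. The gene that was higher was Mef2b, a low-count relative of the MEF2 genes, with 13 UMIs in the control and 45 in the transgenic section and a ratio of 1.94 (1.03 to 2.96). The other SMYD genes did not follow Smyd1 in size. Smyd2 had a ratio of −0.53 (−0.67 to −0.39), Smyd3 of −0.40 (−0.65 to −0.16), Smyd4 of −0.42 (−0.70 to −0.15) and Smyd5 of 0.21 (−0.22 to 0.65). Among the T-box repressors, Tbx2 was at 0.44 (0.22 to 0.65) and Tbx3, a gene of the conduction system, at −0.35 (−0.58 to −0.12). Gata6 had a ratio of 0.23 (0.09 to 0.37).

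Of 14 listed cofactors, 0 were higher and 2 lower past 2-fold, against 13.7% and 5.61% of all tested genes. The median ratio of the 14 was −0.14. The lowest was Hopx, a homeodomain protein without DNA binding that restrains SRF, at 974.7 CPM in control tissue and 321.3 CPM in the transgenic section, a ratio of −1.60 (−1.65 to −1.55). Hdac4, a class II deacetylase that holds back MEF2, was at −1.15 (−1.33 to −0.97), and Hdac9 of the same class at −0.91 (−1.15 to −0.66), while Hdac5 was at 0.08 (−0.03 to 0.18). The SRF coactivators were also split, with Myocd at −0.51 (−0.64 to −0.37) and Mrtfa at 0.64 (0.39 to 0.89). Klf15, a repressor of cardiac growth genes, was at −0.71 (−0.83 to −0.59). Higher values were found for Tead1, the factor of MCAT motifs, at 0.69 (0.60 to 0.79), and for Smarcd3, the cardiac subunit of the BAF chromatin remodeling complex, at 0.96 (0.86 to 1.07). Naca, whose muscle form binds SMYD1, was at −0.12 (−0.16 to −0.08).

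Textbook target genes were grouped by their factor, with no sign implied. Of 8 measured SRF targets, 4 were higher and 0 lower past 2-fold, against 13.7% and 5.61% of all tested genes. Over all tested genes 39.4% of intervals lay above 0. The 8 targets had a median ratio of 1.24, and all 8 of their intervals lay above 0. By quadrants, 5 of the 8 lay wholly above the control, against 30.4% of all tested genes, and the others overlapped. Among them were Cnn1, the smooth muscle calponin, at 2.74 (2.28 to 3.23), Acta1, the skeletal actin of the fetal heart program, at 2.62 (2.57 to 2.67), and the growth-response genes Egr1 at 1.67 (1.42 to 1.93) and Fos at 1.58 (1.24 to 1.94). Acta2, Tagln and Cnn1 are also markers of mural cells, whose 8 markers with at least 20 UMIs had a median of 0.31.

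Of 7 MEF2 targets, 2 were higher and 4 lower past 2-fold, against 13.7% and 5.61% of all tested genes. The median of the 7 was −1.29. The lower ones were the myoglobin gene Mb at −1.77, the muscle creatine kinase gene Ckm at −1.41 (−1.43 to −1.39), the ventricular light chain Myl2 at −1.29 (−1.30 to −1.28) and Ppargc1a, a coactivator of mitochondrial genes, at −1.29 (−1.41 to −1.18). The higher ones were the intermediate filament gene Des at 1.52 (1.51 to 1.54) and Xirp1 of the intercalated disc at 1.21 (1.15 to 1.26).

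The SMYD1 targets listed were Perm1 and Ppargc1a, both regulators of mitochondrial metabolism. Perm1 was at 190.6 CPM in control tissue and 50.6 CPM in the transgenic section, a ratio of −1.91 (−2.04 to −1.79), and its share of spots was 84.2% and 47.3%. Both genes were lower past 2-fold, as were Smyd1 itself and 5.61% of all tested genes. Of 10 listed targets of GATA4, NKX2-5 and TBX5, 8 had at least 20 UMIs. Of these 8, 2 were higher and 2 lower past 2-fold, against 13.7% and 5.61% of all tested genes, and the median was 0.31. Nppa, shown above by its promoter, at 6.21 (6.16 to 6.25) and the stretch-responsive Ankrd1 at 3.68 (3.65 to 3.71) were the higher ones. Myh6 at −1.69 (−1.70 to −1.68) and Tnni3, the adult troponin I, at −1.92 (−1.94 to −1.91) were the lower ones, and Gja5, a connexin that depends on TBX5, was at 0.99 (0.63 to 1.36).

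**Figure D2:**
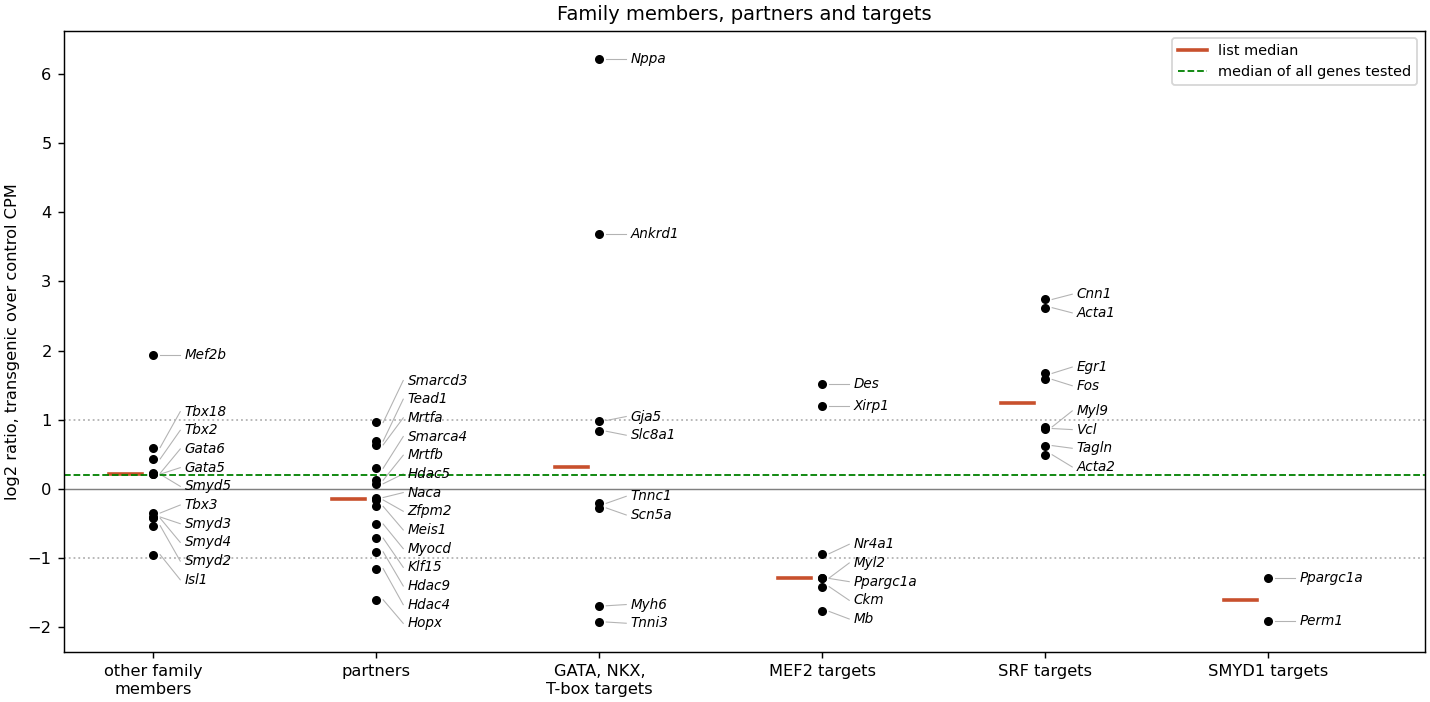
Log2 ratio of transgenic over control CPM for each relative, partner (cofactor) and target gene with at least 20 UMIs, grouped by list, with a red bar at each list's median and a green line at the median of all tested genes (0.20). The SRF targets all lie above 0, while most MEF2 targets and both SMYD1 targets lie below.

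Within the sections the 10 genes were laid out differently. The deposited Moran's I, a score near 0 for a random layout and higher where neighbouring spots are alike, lay between −0.002 and 0.055 in the control section, against a median of 0.00128 over genes. In the transgenic section it lay between 0.037 (Tbx5) and 0.291 (Tbx20), against a median of 0.0143. Smyd1 went from 0.028 to 0.270, Nkx2-5 from 0.013 to 0.207, Hand2 from 0.055 to 0.260 and Mef2a from 0.016 to 0.180. Each of the 10 genes had a higher score in the transgenic section than in the control section, and the median over genes was higher too. The share of all genes with a higher score was not counted. A block of neighbouring transgenic spots had 65.5% of its UMIs from erythroid genes, and its part in these scores was not tested.

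**Figure D3:**
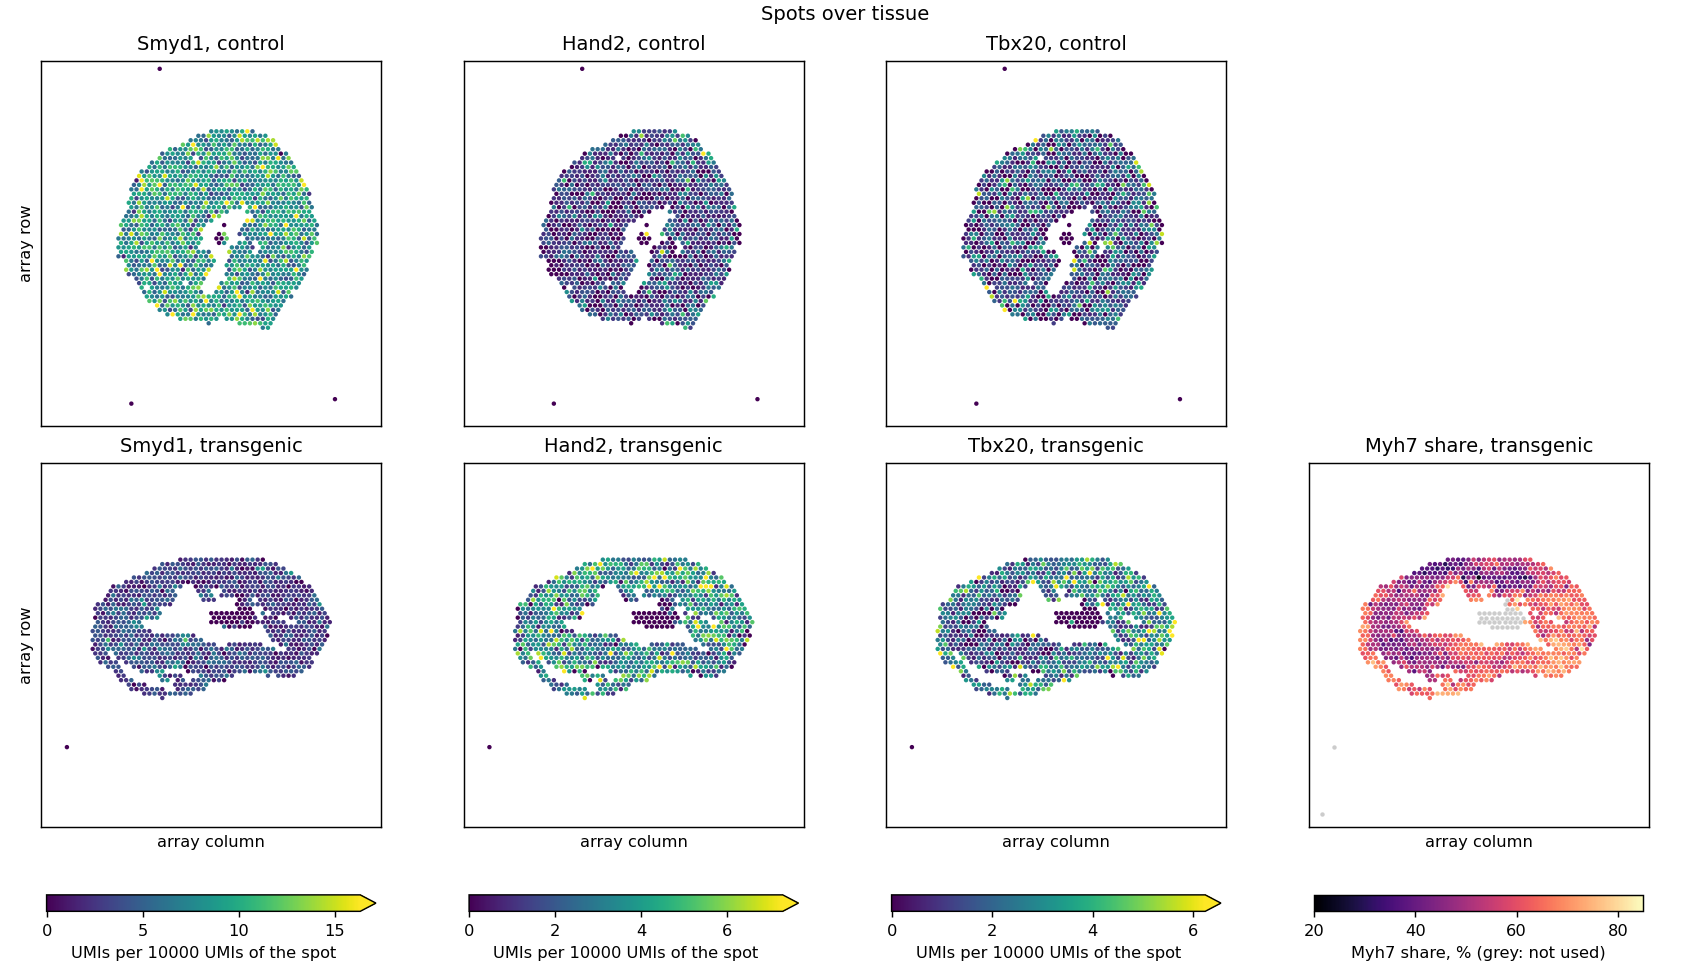
Array maps of Smyd1, Hand2 and Tbx20 in both sections, each spot coloured by its level per 10000 UMIs on a scale shared by both sections, and of the Myh7 share of transgenic spots. Smyd1 is lower over the whole transgenic section and Hand2 higher over nearly all of it, whereas Tbx20 and the Myh7 share vary from region to region of the transgenic section.

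In blocks of neighbouring spots (37 in the control and 28 in the transgenic section), Smyd1 ranged from 688.9 to 1088.6 CPM with a median of 865.7 in the control and from 119.4 to 492.9 with a median of 319.9 in the transgenic section. All 28 transgenic blocks lay below the lowest control block. Hand2 ranged from 87.1 to 210.0 CPM around a median of 141.8 and from 88.0 to 426.8 around 350.8, with 27 of 28 transgenic blocks above the highest control block. The exception was a block with 65.5% of its UMIs from erythroid genes and 0.802% from cardiomyocyte markers, which also gave the lowest Smyd1 value. Erythroid UMIs are part of the CPM divisor, so they lower the CPM of every other gene in that block. Block levels without erythroid UMIs were not worked out. For Tbx20, 20 of 28 transgenic blocks lay above the highest control block, and for Mef2d 22 lay below the lowest. For Tbx5 13 blocks lay below and for Srf 8 lay above, at lower UMI counts per block than Smyd1 or Hand2. How many of all tested genes reach such block counts was not worked out, so these counts only describe the listed genes. By quadrants, 30.4% of all tested genes lay wholly above the control and 13.1% wholly below.

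The relation to the myosin switch was then described within the transgenic section. Myh7 had 483 UMIs in the control and 101646 in the transgenic section, and Myh6 had 265534 and 74280. In the 885 transgenic spots where the 2 myosin genes together reached 20 UMIs, Myh7 was expressed as a percentage of their sum (the Myh7 share), and the spots were ordered into 5 groups of 177 with median shares of 42.2%, 50.8%, 57.8%, 63.4% and 69.2%. The other 39 spots did not reach this minimum and were left out. From the lowest to the highest group, spots with all neighbours over tissue went from 84.2% to 54.2%, cardiomyocyte markers from 3.48% to 3.11% of UMIs, fibroblast markers from 0.178% to 0.242%, atrial markers from 0.00981% to 0.0180%, epicardial markers from 0.00256% to 0.00513% and erythroid genes from 0.822% to 1.67%. The part of position and composition in the values that follow was not tested.

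**Figure D4:**
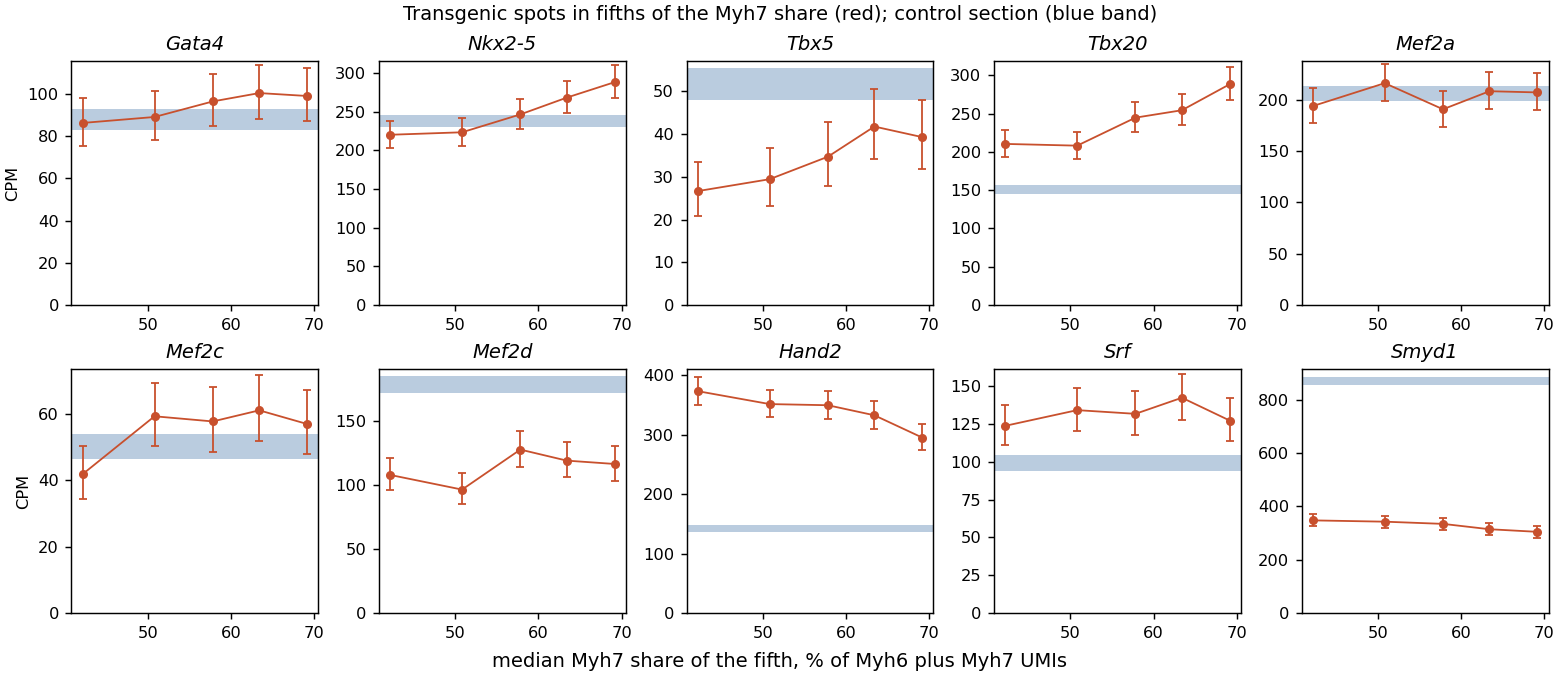
CPM of the 10 genes in 5 groups of 177 transgenic spots ordered by the Myh7 share of myosin heavy chain UMIs, with exact 95% counting intervals and the counting interval of the control section's level as a blue band. Nkx2-5, Tbx20, Tbx5 and Mef2c are higher and Hand2 and Smyd1 lower in the highest than in the lowest group. Smyd1 is far below and Hand2 far above the control level in all 5 groups.

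Nkx2-5 was higher in each successive group, at 220.0, 223.2, 246.3, 268.0 and 288.0 CPM, and the log2 ratio of the highest over the lowest group was 0.39 (0.23 to 0.55). Tbx20 was at 210.3, 208.1, 244.6, 254.3 and 288.4 CPM, a ratio of 0.46 (0.29 to 0.62). Tbx5 was at 26.7, 29.5, 34.7, 41.8 and 39.3 CPM, a ratio of 0.56 (0.11 to 1.02). These 3 factors were thus higher where Myh7 made up more of the myosin UMIs, although Tbx5 was lower in the transgenic than in the control section.

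Hand2 ran the other way, at 373.3, 351.5, 349.6, 332.7 and 295.2 CPM, a ratio of −0.34 (−0.48 to −0.20). Smyd1 was at 347.4, 342.5, 334.3, 314.2 and 304.4 CPM, a ratio of −0.19 (−0.33 to −0.05). Per 10000 cardiomyocyte-marker UMIs, Smyd1 was at 99.8 in the lowest and 97.9 in the highest group, so most of its small difference was not seen on that scale. On the same scale Hand2 was at 107.3 and 94.9, Nkx2-5 at 63.2 and 92.6 and Tbx20 at 60.4 and 92.7. Mef2c was also higher in the highest group, at a ratio of 0.44 (0.08 to 0.81), and the intervals of Gata4, Mef2a, Mef2d and Srf included 0. The share of all genes whose interval lay above or below 0 between these groups was not counted.

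At a log2 difference of at least 0.5 between the highest and lowest group, 1 of the 10 genes was higher (Tbx5), against 13.8% of all tested genes, and 0 were lower, against 5.64%. For Smyd1 and Hand2 the gradients within the section were small beside the differences from the control section, and for Nkx2-5 the reverse held. Against the control section, the ratio of Smyd1 was −1.32 (−1.42 to −1.23) in the lowest and −1.51 (−1.62 to −1.41) in the highest group. That of Hand2 was 1.40 and 1.06 (0.93 to 1.18), and that of Tbx20 0.48 (0.34 to 0.61) and 0.94 (0.81 to 1.06). Nkx2-5 was at −0.11 (−0.24 to 0.02) in the lowest group and at 0.28 (0.16 to 0.39) in the highest.

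The groups were spread unevenly over the section, with 80 spots of the lowest and 12 of the highest group in the first quadrant and 1 and 75 in the fourth. When the spots of each quadrant were split at that quadrant's median share, Hand2 was lower in the upper part of all 4 quadrants (−0.27, −0.19, −0.22 and −0.15) and Tbx5 was higher in all 4 (0.45, 0.33, 0.46 and 0.09). Nkx2-5 was at −0.18, 0.14, 0.42 and 0.15 and Tbx20 at 0.06, −0.10, 0.61 and 0.18, so neither kept its direction in every quadrant. Smyd1 was at −0.05, 0.03, −0.17 and −0.12. How many of all tested genes keep their direction in all 4 quadrants was not counted, so these values only describe the listed genes. No counting intervals are given for these splits, and Tbx5 had only 439 UMIs in the whole transgenic section.

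Over 27 blocks with a Myh7 share between 39.4% and 68.5%, Spearman's rho with the share was 0.71 for Nkx2-5, 0.65 for Tbx5, 0.47 for Tbx20, 0.38 for Gata4, −0.24 for Hand2 and −0.27 for Smyd1. The median rho of 2332 genes was 0.04. Of these genes, 0.386% had a rho at least as high as that of Nkx2-5, 1.16% as Tbx5, 8.36% as Tbx20 and 14.3% as Gata4. A rho at least as low as that of Hand2 was found for 23.2% and as that of Smyd1 for 21.2%, so these 2 values were common among genes. The blocks share 1 section, and blocks with a higher Myh7 share had more fibroblast (0.46) and fewer cardiomyocyte (−0.37) marker UMIs. Over the 885 single spots, where counts are sparse, the rho largest in size was 0.19 (Tbx20).

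Of the 14 cofactors, 5 were higher by at least 0.5 between the highest and the lowest group and 0 were lower, beside 13.8% and 5.64% of all genes. These were Myocd at 0.92 (0.59 to 1.26), Meis1 at 0.75 (0.24 to 1.27), Klf15 at 0.71 (0.40 to 1.02), Mrtfa at 0.52 (0.00 to 1.06), whose interval reached 0, and Mrtfb at 0.52 (0.17 to 0.86). Within quadrants, Klf15 was higher in the upper part of all 4 (0.48, 0.23, 0.37 and 0.33), Mrtfa and Mrtfb in 3, and Myocd and Meis1 in 2. The share of all tested genes with such quadrant counts was not worked out. Among the SRF targets Acta2 and Myl9 were higher and Acta1 and Cnn1 lower past this size, so the SRF targets did not move together across the groups.

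The 10 genes also differed in the markers they went along with over the 28 transgenic blocks. Smyd1 had a rho of 0.84 with cardiomyocyte and 0.74 with endothelial markers and −0.64 with atrial markers, against 0.31, −0.12 and −0.54 over the 37 control blocks. Mef2a was most alike, at 0.62 with cardiomyocyte and 0.77 with endothelial markers (−0.15 and 0.00 in the control), and its rho with Smyd1 was 0.81 in the transgenic and −0.10 in the control section. With both divided by cardiomyocyte-marker UMIs, which then share a divisor, that rho was 0.30.

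Tbx20 had the opposite layout. Its rho was 0.89 with atrial, 0.82 with mural, 0.80 with fibroblast, 0.75 with macrophage and −0.66 with cardiomyocyte markers. Over the control blocks these values lay between −0.04 and 0.28. Tbx5 leaned the same way less strongly, at 0.59 with atrial, 0.57 with fibroblast and −0.34 with cardiomyocyte markers. Nkx2-5 and Gata4 were at 0.50 and 0.46 with atrial markers. Tbx5 and Tbx20 went together at 0.59 (−0.15 in the control), and at 0.75 per cardiomyocyte-marker UMI, which gives a shared divisor. Atrial markers took 0.00254% of control and 0.0131% of transgenic UMIs, and the 4 measured ones had a median ratio of 1.53. Their ratios ran from −0.53 to 4.20, with 3 above and 1 below 0, so the summed markers need not stand for each of them. The rho of Tbx20 with Smyd1 was −0.56 in the transgenic and 0.05 in the control section. Without the transgenic block poorest in cardiomyocyte markers it was −0.74. With both per cardiomyocyte-marker UMI, and so with a shared divisor, it was −0.02 over all transgenic blocks. Nkx2-5 and Tbx5 went together at 0.65 (0.06 in the control), at 0.61 without that block and at 0.66 per cardiomyocyte-marker UMI, again with a shared divisor. Hand2 went only weakly with the marker lists, with rho between −0.30 and 0.26 in the transgenic section. Mef2d was as weak there, between −0.28 and 0.24. In the control section Hand2 was at 0.45 with cardiomyocyte markers.

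**Figure D5:**
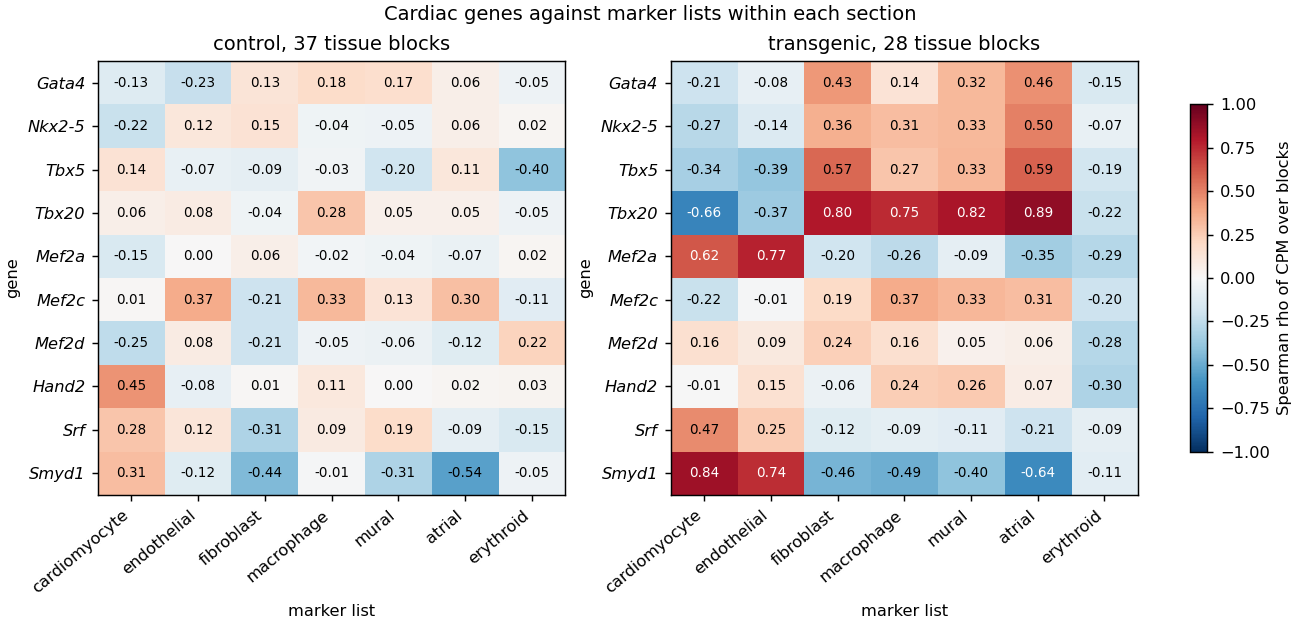
Spearman's rho of each of the 10 genes with the summed markers of 7 cell types over blocks of spots, 37 in the control and 28 in the transgenic section, on a colour scale from −1 to 1. The transgenic panel separates Smyd1 and Mef2a (with cardiomyocyte and endothelial markers) from Tbx20 (with atrial, mural, fibroblast and macrophage markers). The control panel is paler.

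Among the genes most like Smyd1 over the transgenic blocks, by rho of CPM among 2332 genes, were Psme4 at 0.87 and Etfdh at 0.87, which had section ratios of 0.58 and −0.90. Psme4 encodes a proteasome activator and Etfdh an enzyme that passes electrons to ubiquinone. In the control section their rho with Smyd1 was 0.19 and 0.33. Those most like Hand2 were Myl12a at 0.72, Atp6v0e at 0.70 and Rras2 at 0.67, with ratios of 0.23, 0.50 and 2.03. Likeness in layout within the transgenic section thus went with section ratios of either sign.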

How the data were processed

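Spatial RNA was measured by probe-based Visium CytAssist in 1 control and 1 TOP2B transgenic heart section. The tables deposited by the authors hold unnormalized UMI counts for each gene in each spot and a Moran's I score for each gene, both made with Space Ranger 2.0.0 per the file headers. The submitters' processing notes also name bcl2fastq and the mm39 build, and the probe set version is not given in the sources used here. Because probes per gene are unknown, levels were not compared between genes, except in the Myh7 share. The size of that share depends on the probes of both myosin genes, so it serves to order spots and blocks. Spots flagged over tissue were used, and positions on the array came from the deposited tables. Both sections share the capture array's design, so 725 barcodes occur in both and name positions, not cells.

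UMIs were summed per section, quadrant, block (6 array rows by 12 columns, at least 18 spots) or group of spots and divided by the total of all genes, so each CPM depends on the most abundant genes. Ratios were given for genes with at least 20 UMIs over both sections. Intervals were exact (Poisson for CPM, conditional binomial for ratios, Clopper-Pearson for shares). The intervals for CPM and for ratios were tested on simulated counts that held counting error only, not the spread between spots or mice. The study's test over spots was not repeated, since spots of 1 mouse are no replicates. Genes named were all 10 genes, the genes of the fixed relative, cofactor and target lists past 2-fold or of a stated role, and the 3 most like Smyd1 and Hand2 among genes with at least 1000 UMIs in the transgenic section, of which 1 is not reported here. The 10 genes and the lists were chosen with earlier results of these data known, so they are no independent evidence. Alternatives were other scaling (edgeR 4.0.16 TMM and DESeq2 1.42.0 factors, totals without the 50 most abundant genes or over cardiomyocyte markers), subsets of spots, other minimums and block sizes. Promoter motifs were searched by script. Python 3.11.15 with numpy 2.4.6, scipy 1.17.1, pandas 2.3.3 and matplotlib 3.10.9, and R 4.3.3 were used.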

Additional observations from a re-analysis of the deposited data

How the results depend on the processing

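No paired analysis was possible because each genotype had 1 section and no replicate. The signs of Smyd1, Hand2, Tbx20, Tbx5, Mef2d and Srf held in all 11 alternatives to the section comparison, with ranges of −1.57 to −1.15, 1.09 to 1.52, 0.40 to 0.92, −0.94 to −0.34, −0.83 to −0.40 and 0.24 to 0.66. Gata4 (−0.08 to 0.35), Nkx2-5 (−0.11 to 0.32), Mef2a (−0.19 to 0.23) and Mef2c (−0.03 to 0.40) changed sign. The median ratio of the 10 genes went from 0.07 to −0.092 with TMM factors, −0.085 with DESeq2 size factors and 0.33 with cardiomyocyte-marker UMIs as the total, and the first 2 factors shifted the ratio of every gene by −0.16 and −0.15. With a call at log2 0.5 in place of 1, 2 genes were higher (Hand2 and Tbx20) and 3 lower (Tbx5, Mef2d and Smyd1). The share of all tested genes past log2 0.5 between the sections was not counted, so these counts only describe the listed genes. Between the highest and lowest Myh7 share, the count of 1 gene higher became 2 with at least 100 Myh6 and Myh7 UMIs per spot, 4 with cardiomyocyte-marker UMIs as the total, 2 in interior spots, 3 in the spots richest in cardiomyocyte markers, and 0 for a median split within quadrants 1, 2 and 4. The count of lower genes was 0 in all of them. The shares of all genes under these settings were not counted. Cardiomyocyte markers went from 3.48% to 3.11% of UMIs between these groups, so using them as the total raises the ratio of every gene. Totals without erythroid genes, the spots poorest in them and the block correlations without the block poorest in cardiomyocyte markers or per cardiomyocyte-marker UMI were added after the data were seen. Without that block the rho of Smyd1 with cardiomyocyte markers was 0.83 and that of Tbx20 −0.85. Depth limits Tbx5 and Mef2c most, which had the fewest UMIs of the 10 genes.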
